A study of Mus musculus with 6 samples.

Results

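The clustered protocadherin genes lie side by side in 3 clusters, alpha, beta and gamma, on mouse chromosome 18. CpG methylation was measured at 903 cytosines within these clusters, of 890041 in the whole table. A cytosine was a member when its mm10 position lay in the alpha (36930000 to 37190000), beta (37260000 to 37510000) or gamma window (37655000 to 37845000). Alpha held 169 sites, beta 159 and gamma 575. The windows contained the starts of 56 clustered protocadherin genes (14 alpha, 20 beta and 22 gamma). Of these, 42 had a covered site in their variable exon and 38 had at least 3, the number required for a level of the exon.

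Reduced representation bisulfite sequencing (RRBS), which reads methylation mainly in CpG-rich DNA around CCGG cut sites, was applied to micro-dissected dentate gyrus, the hippocampal subregion in which granule neurons are born throughout life. All mice were female C57BL/6JRj, 4.5 months old, and had food, water and light cycle in common. They had lived for 3 months in standard cages (STD, 3 mice) or in an enriched environment (ENR, 3 mice). The latter was a large enclosure with toys and tunnels, shared by a larger group of mice than a standard cage held. Each library came from 1 mouse. The tissue holds neurons and other cells, no RNA was measured in these samples, and the identity of the dissected tissue was therefore not checked against marker genes. A methylation level is the percent of reads at a cytosine that were methylated, and an intermediate level from cells that differ cannot be told apart from one due to alleles that differ within a cell.

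Clustered protocadherins are cadherin-like adhesion molecules that meet on the surfaces of neighbouring neurites and give a neuron a surface identity. In the alpha and gamma clusters, each gene has its own large variable exon, which carries a promoter and encodes the extracellular part, and this exon is spliced to constant exons shared by the whole cluster. Beta genes consist of a single exon. A neuron expresses only a few of the alternate genes, chosen at random through promoter methylation and CTCF-mediated looping to distant enhancers, whereas the C-type genes at the end of the alpha and gamma clusters are switched on in a more regular way.

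Averaged over exons, the alternate variable exons were methylated at intermediate to high levels and the C-type exons at low levels in every mouse. Single exons could cross this order, since in ENR replicate 3 the C-type exon of Pcdhgc5 (17.8%) was above the alternate exon of Pcdha5 (10.2%). Over exons with at least 3 sites, the 6 alternate alpha exons ranged from 32.2% to 60.7% with a median of 55.3%. The 8 beta exons ranged from 46.4% to 85.4% with a median of 74.6%. The 19 alternate gamma exons ranged from 33.5% to 92.5% with a median of 43.6%. By contrast, both alpha C-type exons were under 8% and the 3 gamma C-type exons had levels of 1.56%, 1.90% and 21.8%.

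**Figure D1:**
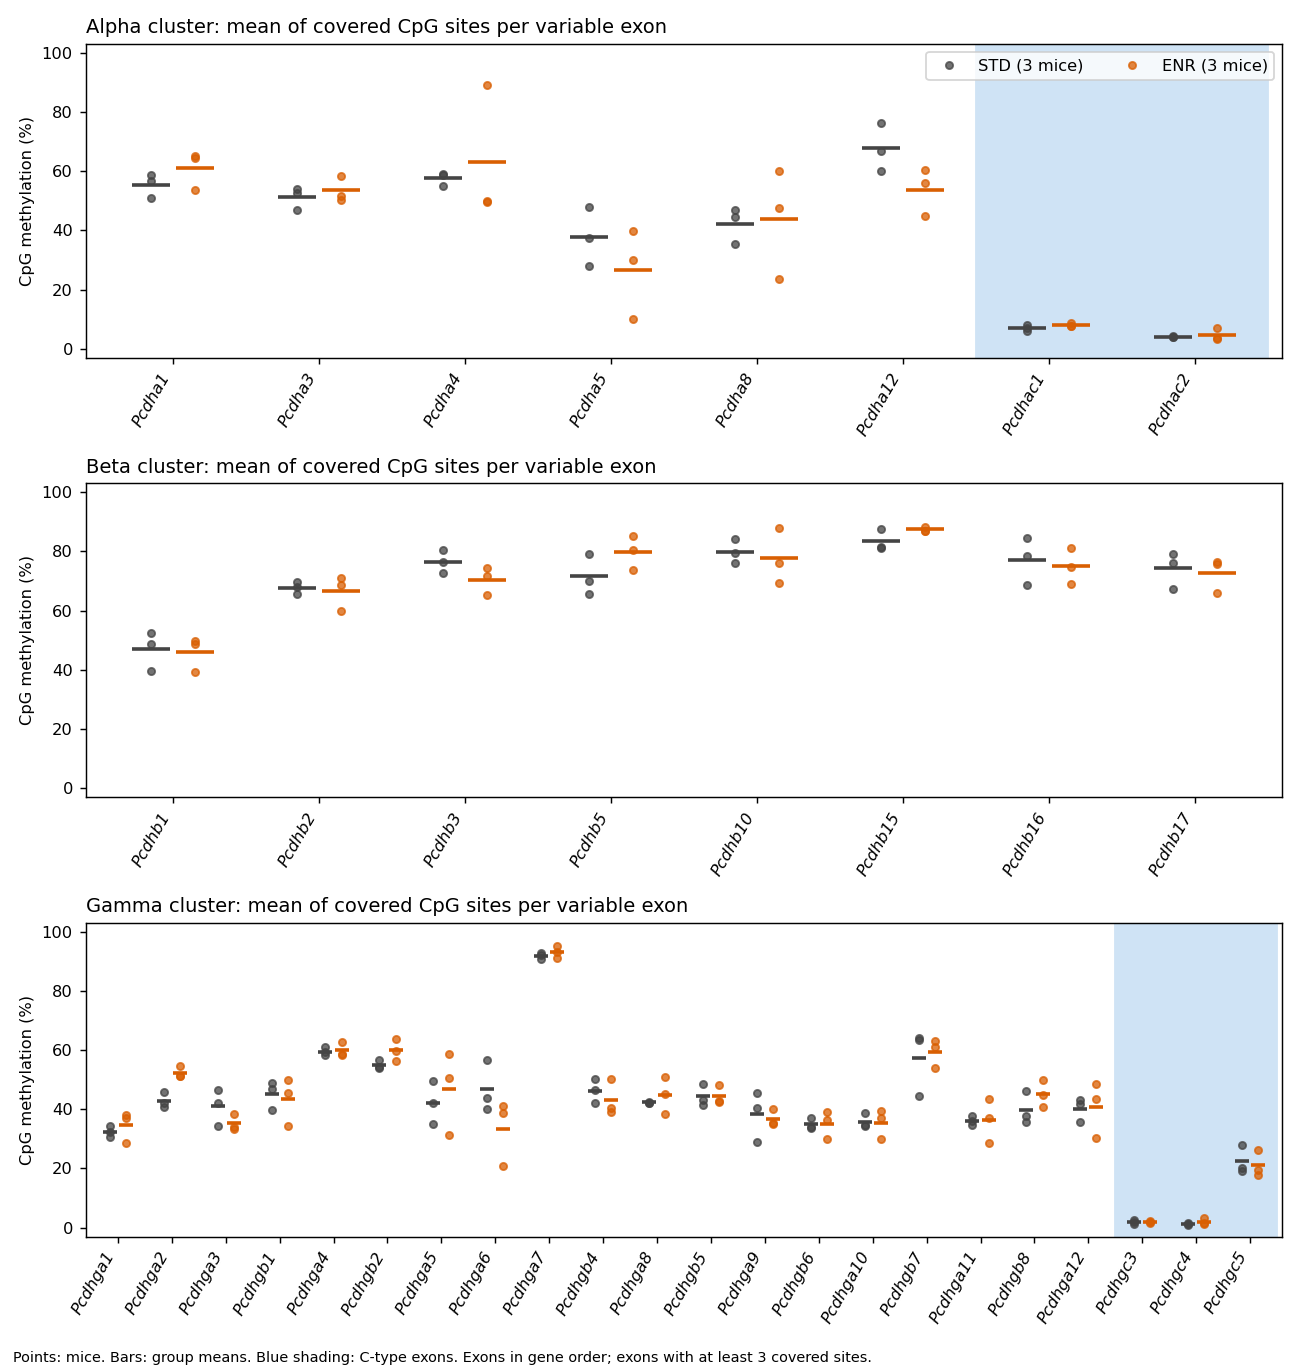
CpG methylation in percent (vertical axis) of each variable exon with at least 3 covered sites, in gene order along each cluster. Points are single mice (STD grey, ENR orange), horizontal bars are group means and blue shading marks the C-type exons, of which Pcdhgc5 (21.8%) was the highest, while alternate exons ran from 32.2% (Pcdha5) to 92.5% (Pcdhga7).

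The coverage of the clusters by RRBS was uneven. Sites covered 432 of the 2237 CpGs in gamma variable exons (19.3%), 116 of 1635 in alpha (7.09%) and 95 of 1561 in beta (6.09%). All 19 alternate gamma exons and all 5 C-type exons had at least 3 sites, against 6 of 12 alternate alpha exons and 8 of 20 beta exons. How many reads each percentage rests on is not known, other than that it is at least 10, so no interval from read numbers is given. As a measure of the error at single cytosines, 64 CpGs of intermediate level (20 to 80%) were read on both strands. The median difference between the strands of the same CpG in the same mouse was between 9.72 and 17.5 percentage points, depending on the library. At single sites of intermediate level the range over the 6 mice had a median of 40.2 points.

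In the alpha cluster, which begins with Pcdha1, 4 of the 6 alternate exons lay between 52.4% (Pcdha3) and 60.7%, with Pcdha8 (43.0%) and Pcdha5 below them. Pcdha12, the last alternate alpha gene, had the highest level (60.7% over 4 sites). Its values in the order of replicates 1 to 3 were 66.8%, 59.9% and 76.3% in STD and 60.4%, 44.8% and 56.0% in ENR. Pcdha5 had the lowest level among the alternate alpha exons (32.2% over 7 sites), with 37.3%, 27.9% and 47.9% in STD and 30.1%, 39.9% and 10.2% in ENR. The mice thus spread over 37.7 points at Pcdha5, more than the 28.5 points between the highest and the lowest alternate alpha exon. Pcdha1, with 25 sites the best covered alternate alpha exon, had a level of 58.3% and ranged from 51.0% to 65.2%, above every mouse at Pcdha5. Pcdha10 had only 2 sites, with a mean of 17.5% and single mice between 0% and 56.2%, and Pcdha2, Pcdha6, Pcdha7, Pcdha9 and Pcdha11 had none.

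Beta genes, whose products lack the shared cytoplasmic part of the other clusters, had the highest median of the 3 clusters. Pcdhb15 was highest (85.4% over 6 sites), with 81.6%, 87.6% and 81.2% in STD and 88.2%, 87.1% and 87.1% in ENR. Pcdhb1, the first gene of the cluster, was lowest (46.4% over 19 sites), with 52.4%, 48.8% and 39.8% in STD and 49.8%, 48.6% and 39.4% in ENR. Its level depended on where its sites lay, since 9 of the 19 were in the first 500 bp of the exon, at 23.6%. Pcdhb2 also had 23.6% there, but with 8 of its 40 sites. At 1000 to 2500 bp Pcdhb1 had 67.0% and Pcdhb2 76.5%. All 6 mice were lower at Pcdhb1 than any mouse was at any other beta exon with at least 3 sites. The remaining exons of this kind lay between 67.2% (Pcdhb2) and 78.9% (Pcdhb10), where the mice overlapped from one exon to the next. Pcdhb12, with 2 sites, had a mean of 32.4%, Pcdhb13 (1 site) 83.4% and Pcdhb14 (2 sites) 88.2%.

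The gamma cluster holds A-type and B-type alternate genes in alternation, and 18 of its 19 alternate exons lay between 33.5% and 59.7%. Pcdhga1, the first gene, was lowest (33.5% over 24 sites), with 34.4%, 30.5% and 32.3% in STD and 37.2%, 37.9% and 28.7% in ENR. Pcdhga7 stood apart with 92.5% over 12 sites. Its values were 92.8%, 90.8% and 92.3% in STD and 91.1%, 93.1% and 95.1% in ENR, above every other gamma exon in every mouse. The next exons, Pcdhga4 (59.7%), Pcdhgb7 (58.4%) and Pcdhgb2 (57.5%), overlapped each other in their values by mouse. Pcdhgb8, annotated as a polymorphic pseudogene, had 42.5%, and its mice overlapped with those of the coding exons on either side, Pcdhga11 (36.3%) and Pcdhga12 (40.5%).

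Among C-type genes, Pcdhac2, which is needed for the even spacing of serotonergic axons, had 4.36% over 50 sites. Its values were 4.01%, 4.03% and 4.30% in STD and 6.92%, 3.55% and 3.38% in ENR. Pcdhac1, whose product needs another protocadherin to reach the cell surface, had 7.56% over 23 sites, with 6.96%, 6.08% and 8.07% in STD and 7.72%, 8.84% and 7.71% in ENR. Both were lower than every alternate alpha exon with at least 3 sites in every mouse. Pcdhgc3, which promotes dendrite branching, had 1.90% over 63 sites, with 1.74%, 2.52% and 1.29% in STD and 1.47%, 2.39% and 2.01% in ENR. Pcdhgc4, the isoform that neurons require for survival, had 1.56% over 28 sites, with 1.37%, 0.79% and 1.52% in STD and 1.12%, 1.48% and 3.12% in ENR. Pcdhgc5, which binds a GABA receptor subunit, was the most methylated C-type exon at 21.8% over 24 sites, and its values were 20.3%, 27.8% and 19.0% in STD and 26.2%, 19.6% and 17.8% in ENR. No mouse reached at Pcdhgc3 or Pcdhgc4 the lowest value of Pcdhgc5.

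The difference between the gene types was tested within libraries, as the mean over exons of one type minus that of the other in each mouse. In all contrasts within libraries the SD and p-value describe mice for a fixed set of exons. They do not measure the spread between exons, which were not replicates. C-type exons were lower than alternate exons by 45.2 ± 2.25 points (SD, n = 6) in alpha, at 5.96% against 51.1%. In gamma the mean difference was -37.7 ± 2.62 points (SD, n = 6), at 8.42% against 46.2%. Each difference was seen in 6 of 6 mice (two-sided exact sign-flip permutation test, p = 0.031, the smallest that 6 libraries allow, and p = 0.0365 after Benjamini-Hochberg adjustment over the 7 contrasts tested). Covered sites do not sit at the same places in every exon, so the contrasts were repeated within 3 classes of distance from the exon start, which was added after the values were seen. The differences were then -41.2 points in alpha and -39.8 points in gamma, again in 6 of 6 mice (exact test, p = 0.031).

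At single sites the types differed in their make-up but overlapped. Of 188 covered sites in C-type exons, 69 of 73 in alpha and 107 of 115 in gamma were under 20%, and none was over 80%. Alternate gamma exons had 65 of 386 sites under 20% (16.8%), 263 between 20 and 80% (68.1%) and 58 over 80%. Alternate alpha exons had 48 of 59 sites in the intermediate class (81.4%). Beta exons were split between intermediate sites (55 of 117) and sites over 80% (52). Over all windows, 46.2% of sites were intermediate, against 14.6% of the whole table.

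Between the clusters, beta exons had the highest mean over exons, in contrasts that were not matched for distance from the exon start. All alpha variable exons together, the C-type included, were lower than beta exons by 32.2 ± 2.76 points (SD, n = 6) and all gamma variable exons by 31.1 ± 1.16 points (SD, n = 6), in 6 of 6 mice each (exact sign-flip permutation test, p = 0.031, adjusted p = 0.0365). With alternate exons only, added after the values were seen, the mean differences were -20.9 points for alpha and -25.9 points for gamma. The order depended on the position of the sites. In the first 500 bp, with 22 of 117 beta sites, beta exons had 31.8%, alternate alpha exons 42.3% and alternate gamma exons 25.4%. Beta was highest at 500 to 1000 bp (82.0%, against 37.5% and 49.3%) and at 1000 to 2500 bp (75.1%, against 62.1% and 58.5%). Gamma and alpha variable exons differed by 1.17 ± 2.81 points (SD, n = 6, exact p = 0.344, also after adjustment, gamma higher in 5 of 6 mice). This value depended on which exons were compared. It was -4.98 points with alternate exons only, lower in gamma in 6 of 6 mice, and 10.2 points with the variable-exon sites of each cluster pooled, where C-type sites make up 73 of the 130 alpha sites and 115 of the 501 gamma sites (exact p = 0.031 each).

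Protocadherin variable exons were far more methylated than the first exons of other genes. Their mean was 47.3% over 38 exons, against 4.91% over 10784 first exons of other genes with at least 3 sites, a difference of 42.4 ± 1.84 points (SD, n = 6, 6 of 6 mice, exact sign-flip permutation test p = 0.031, adjusted p = 0.0365). Variable exons are long, and within the same classes of distance from the exon start the difference was 36.5 ± 1.61 points (SD, n = 6, exact p = 0.031). This was a contrast of alternate and beta exons with other genes. C-type exons had 1.88% in the first 500 bp against 2.62% in other genes, and 11.8% against 6.02% at 1000 to 2500 bp.

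Alternate gamma and beta exons were least methylated at the start of the exon, next to the promoter. In alternate gamma exons, the first 500 bp had 25.4% over 127 sites, the next 500 bp 49.3% over 105 sites and the stretch from 1000 to 2500 bp 58.5% over 148 sites. The lowest mouse in each of the last 2 stretches (44.3% and 54.7%) was above the highest mouse in the first (29.0%). Beta exons had 31.8% over 22 sites, 82.0% over 14 sites and 75.1% over 81 sites in these stretches. Alternate alpha exons had 42.3%, 37.5% and 62.1% over 21, 9 and 29 sites, and their first stretch spread from 26.3% to 52.0% among mice.

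**Figure D2:**
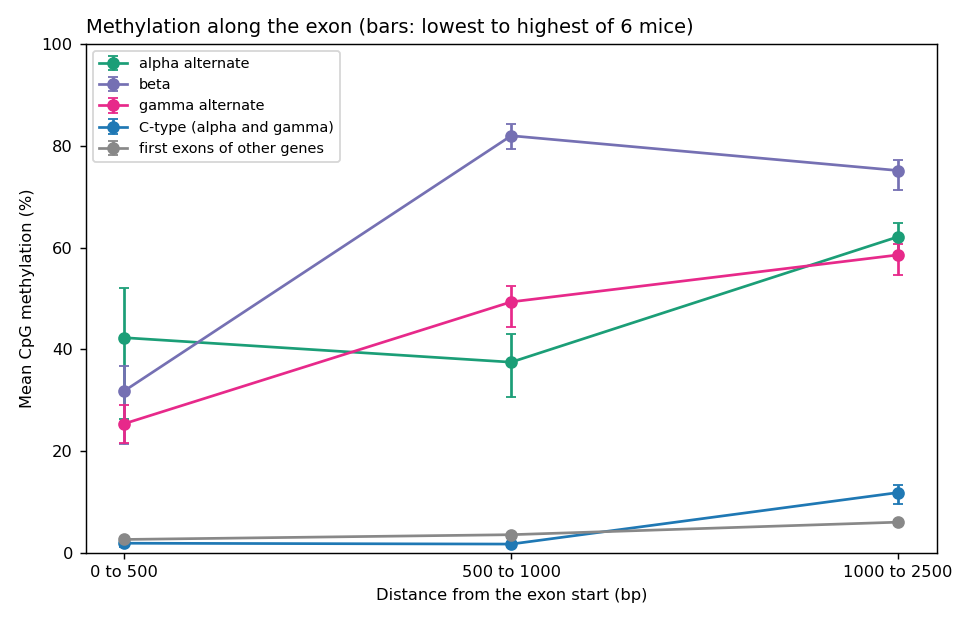
Mean CpG methylation in percent (vertical axis) in 3 classes of distance from the exon start in bp (horizontal axis). Points are means over 6 mice and bars run from the lowest to the highest mouse, with alternate gamma exons going from 25.4% to 58.5% while C-type exons and first exons of other genes stayed under 14% in every mouse and class.

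Because different exons supply the sites at different distances, the first 500 bp and the stretch from 1000 to 2500 bp were also compared within the same exon, where both had at least 3 sites. Among 11 such alternate gamma exons, 10 were higher in the far stretch in 6 of 6 mice and the remaining one, Pcdhgb1, in 5, with a median difference of 31.9 points. In Pcdhga2 the first stretch had 19.2% (8.83% to 30.7% over the mice) and the far stretch 92.2% (77.4% to 100%). Pcdhga4 went from 17.5% to 89.5% and Pcdhgb6 from 4.36% to 42.1%. Pcdhgb5 had the smallest difference, from 30.7% to 40.5%. Both beta exons with enough sites, Pcdhb1 (23.6% and 67.0%) and Pcdhb2 (23.6% and 76.5%), were higher in the far stretch in every mouse. Pcdha1, the only alternate alpha exon that qualified, had 52.4% and 60.2%, and the far stretch was higher in 4 of 6 mice. The C-type exons Pcdhac2 (0.57% and 10.8%) and Pcdhgc5 (9.11% and 27.0%) showed the same order in 6 of 6 mice, and Pcdhgc3 (0.87% and 3.35%) in 5 of 6.

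Few sites lay in the 1 kb upstream of the exons. The 26 upstream gamma sites had 4.91%, ranging from 2.36% to 6.96% over the mice, and 13 of them belonged to Pcdhgc3 (1.31%) and 9 to Pcdhga11 (7.16%). Upstream of Pcdhga11 all mice lay between 4.0% and 9.42%, below the 28.7% to 43.4% of its exon. The 4 upstream alpha sites, all at Pcdhac1, were at 0% in 5 mice and at 2.50% in STD replicate 2. In beta, 2 sites upstream of Pcdhb2 had 7.56% and 4 sites upstream of Pcdhb13 had 58.6%, with no overlap between the mice of these genes.

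The constant exons, which encode the cytoplasmic part shared by all isoforms of a cluster, were almost uncovered. In alpha, only constant exon 3 (37184946 to 37187661) held a site, with 16.7%, 48.3% and 46.9% in STD and 65.7%, 42.5% and 0% in ENR. The difference of -1.22 points at this site was far below the spread between mice (two-sided exact permutation test over the 20 regroupings, p = 1, smallest possible p = 0.1). In gamma, 3 sites lay in constant exon 1 (37825021 to 37825079). They had 2.08% ± 2.40 in STD and 2.85% ± 0.80 in ENR (SD, n = 3 each), a difference of 0.77 points (exact p = 0.7).

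Sites outside the exons and promoters differed between the clusters. In alpha 22 of 32 such sites were over 80%, among them 11 sites between the variable exons of Pcdha7 and Pcdha8 (36980330 to 36980458) at 95.2%. In beta a stretch of 26 sites between Pcdhb1 and Pcdhb2 (37285362 to 37285765) had 71.0%. In gamma 34 of 45 were under 20%, including 17 sites just after the last constant exon (37842432 to 37842894) at 6.37% and 9 sites at the start of the window (37655533 to 37655668) at 5.08%.

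**Figure D3:**
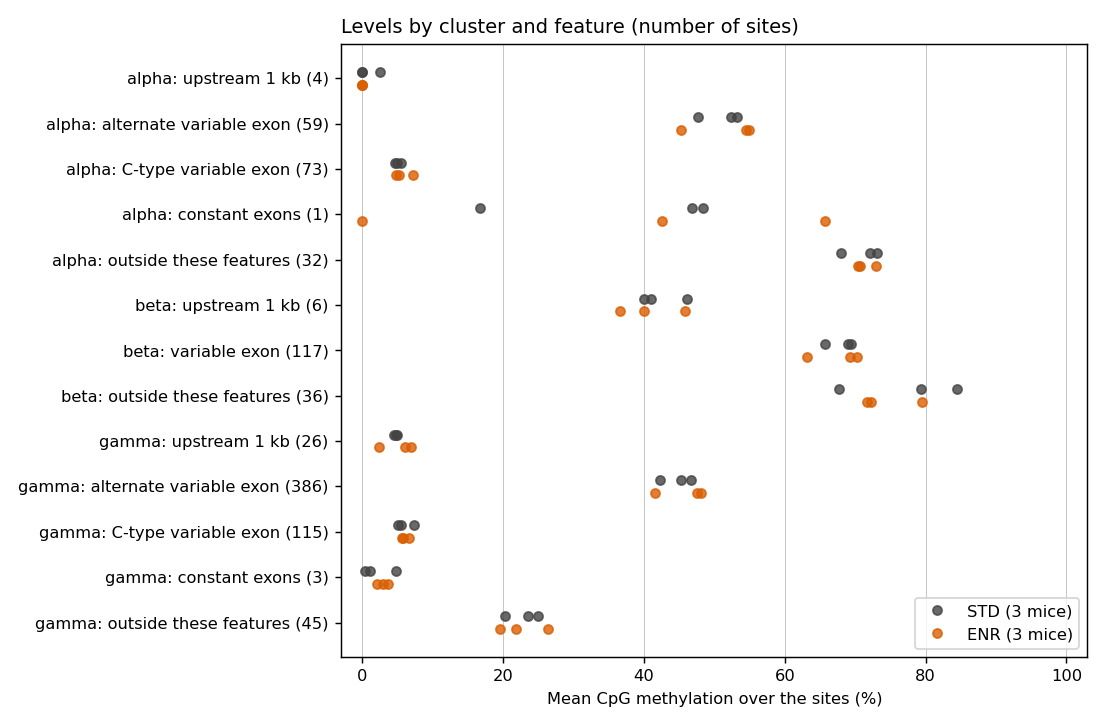
Mean CpG methylation in percent (horizontal axis) by cluster and feature, with the number of sites in parentheses; points are single mice (STD grey, ENR orange). STD and ENR points overlap in every feature, and in the alpha constant exons, with 1 site, they run from 0% to 65.7%.

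The remaining question was whether ENR housing changed methylation in the clusters. Alpha had 34.3%, 32.7% and 34.1% in STD and 36.5%, 34.9% and 31.2% in ENR, so that ENR mice were both above and below all STD mice. The group means were 33.7% ± 0.91 and 34.2% ± 2.74 (SD, n = 3 each), a difference of 0.48 points (exact permutation test, p = 0.8). Beta had 71.5%, 70.7% and 65.2% in STD and 71.4%, 68.9% and 64.1% in ENR. The difference of -1.01 points lay within the spread of the groups, whose SDs were 3.44 and 3.72 (exact p = 0.6). Between mice of the same replicate number, the beta differences were -0.083, -1.84 and -1.11 points, lower in ENR in 3 of 3 pairs (exact sign-flip p = 0.25, the smallest that 3 pairs allow). Gamma had 34.5%, 34.0% and 31.2% in STD and 36.0%, 35.1% and 30.7% in ENR, a difference of 0.69 points with SDs of 1.79 and 2.83 (exact p = 0.6). After adjustment over the 5 differences tested, 3 clusters and 2 sets of constant exons, p was 1 for each. In each cluster the lowest ENR mouse was replicate 3, which was also the lowest of all libraries over the whole table, where the means over all sites were 23.7% in STD and 23.2% in ENR. Over intermediate sites of the whole table this library had 37.6% and STD replicate 3 had 43.6%, against 50.9% to 52.3% in the others, and over intermediate protocadherin sites they had 41.6% and 44.6%, against 48.1% to 51.9%. With single libraries left out, the sign of the beta difference changed without ENR replicate 3 (1.01 points) and without STD replicate 1 (0.17 points). That of the gamma difference changed without STD replicate 3 or ENR replicate 1 (-0.34 points each), and that of the alpha difference without ENR replicate 1 (-0.68 points) or STD replicate 2 (-0.042 points). The part of the low libraries in these differences was not tested.

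By exon, no variable exon passed the test. limma, fitted on the percentages of the 10700 first exons that varied between mice, called 0 of 38 variable exons at an adjusted p under 0.05, and 0 had an unadjusted p under 0.05 (smallest adjusted p = 0.961). The same fit called 0% of all first exons. Without a variance trend 1 exon had an unadjusted p under 0.05 and none was called. Of the 38 exons, 23 were higher and 15 lower in ENR, with a median difference of 0.34 points. Among 32 exons of intermediate level, 17 were higher and 15 lower, with a median within-group SD of 5.32 points. Among 528 other first exons of intermediate level, 315 were lower and 213 higher, with a median within-group SD of 8.78 points.

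Groups without overlap were seen at 1 exon of 38 with higher levels in ENR and at none with lower levels, against 3.7% and 5.35% of all first exons tested. The exon was that of Pcdhga2, with 40.9%, 45.7% and 42.1% in STD and 54.6%, 51.3% and 51.2% in ENR. All 18 covered sites of this exon contributed to the level, the difference was 9.48 points and limma gave an unadjusted p of 0.24 (adjusted p = 0.961). The share of 1 in 38 is near the background of other first exons, so Pcdhga2 cannot be set apart from it.

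Besides Pcdhga2, the differences between group means that were largest in each cluster came with overlapping groups. Pcdhga6 (6 sites) had 56.6%, 43.7% and 40.2% in STD and 41.0%, 38.7% and 20.7% in ENR, a difference of -13.4 points. Pcdha12 differed by -13.95 points and Pcdha5 by -11.0 points, each with values given above. Pcdha4 (4 sites) had 59.2%, 58.6% and 54.9% in STD and 49.6%, 50.1% and 89.3% in ENR, where 1 ENR mouse accounted for the higher mean. Pcdhb5, the largest difference in beta (8.30 points over 10 sites), had 69.9%, 79.2% and 65.6% in STD and 85.4%, 73.7% and 80.5% in ENR. Differences of the other exons named by size were 5.77 points at Pcdha1, 5.23 points at Pcdhgb8 and 4.0 points at Pcdhb15, and -6.15 points at Pcdhb3, -5.75 points at Pcdhga3 and -2.26 points at Pcdhb16, all with overlapping groups. Differences at the 5 C-type exons ran from -1.17 points at Pcdhgc5 to 1.05 points at Pcdhac1.

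**Figure D4:**
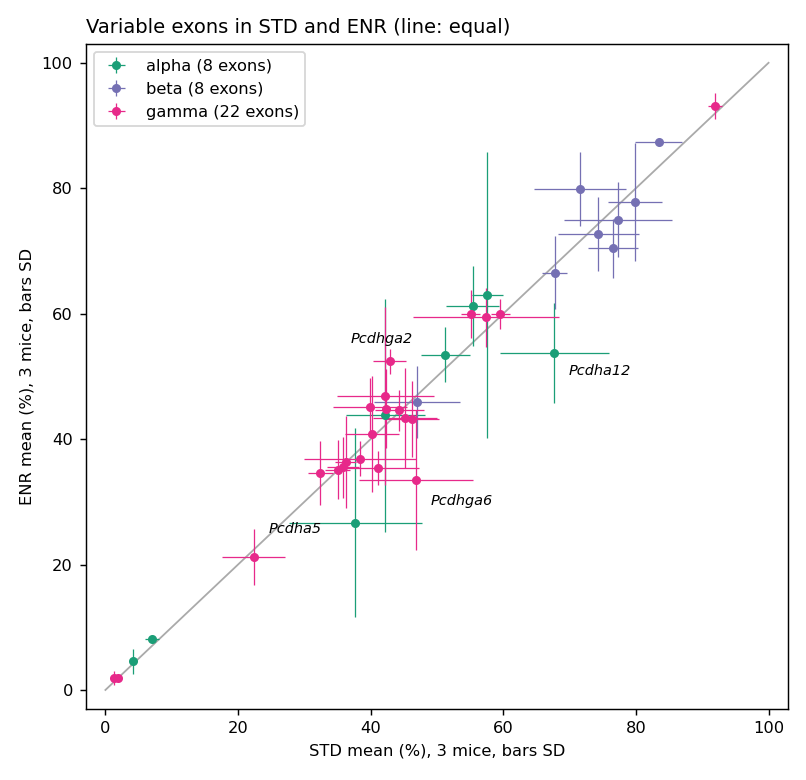
STD mean (horizontal axis) against ENR mean (vertical axis) of CpG methylation in percent for 38 variable exons, with SD over 3 mice as bars and a line of equal levels. Points lie along the line, and for Pcdhga6, Pcdha12 and Pcdha5, which lie furthest below it (-13.4, -13.95 and -11.0 points), the STD and ENR mice overlapped.

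At single cytosines the test also made no call. Of 903 sites, 72 had identical values in all libraries and 831 were tested. limma called 0 of them at an adjusted p under 0.05 with a difference over 25 points, and it called 0% of the 615152 sites of the table. An unadjusted p under 0.05 was found at 14 sites (1.68%, against 2.68% of all tested sites), and the smallest adjusted p was 0.852. A difference of group means over 25 points was seen at 13 sites lower in ENR and 20 higher. Among the 417 intermediate sites, 12 were lower by over 25 points (2.88%) and 18 higher (4.32%), against 7.09% and 3.94% of all intermediate sites in the table. The share that was higher was near the background. Neighbouring sites share reads, so these shares were not tested. The median difference at intermediate sites was 0.56 points in the clusters and -2.30 points over the whole table.

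Sites with non-overlapping groups and a difference over 25 points numbered 8 in each direction, all of intermediate level. This was 1.92% of the 417 intermediate sites each way, against 2.9% lower and 1.55% higher among all intermediate sites of the table, and was not tested. The 3 with the lowest limma p in each direction are given here. In ENR, lower values were seen at a cytosine of Pcdhgb8 (position 37763307), with 81.0%, 68.9% and 71.1% in STD and 46.0%, 40% and 41.9% in ENR. The mean difference of its 2 neighbours within 100 bp was 13.8 points in the opposite direction, and 1 of them shared its direction. A cytosine of Pcdha5 (36960891) had 38.2%, 14.3% and 96.2% in STD and was at 0% in all 3 ENR mice, while its 6 neighbours differed by -4.57 points and 3 of them shared its direction. At Pcdhga9 (37737558) the values were 66.3%, 73.1% and 56.8% in STD and 4.17%, 30.0% and 56.5% in ENR, and all 3 neighbours shared the direction, with a mean of -12.9 points. Higher values in ENR were seen at a cytosine of Pcdha1 (36930558), with 0%, 15.6% and 46.7% in STD and 66.7%, 100% and 76.9% in ENR. Its 5 neighbours shared the direction, by 8.78 points on average. The cytosine of Pcdhb17 (37486123) had 40%, 56.9% and 38.6% in STD and 72.1%, 71.1% and 88.1% in ENR, and 2 of its 6 neighbours shared the direction. At Pcdha3 (36948118) the values were 44.7%, 55.6% and 63.8% in STD and 70.3%, 85.0% and 85.7% in ENR, and 2 of 5 neighbours shared the direction. None of the 6 cytosines passed the test (limma adjusted p = 0.852 each).

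The level of an exon was set beside its base composition, as a description over exons that share libraries. Over 38 variable exons, Pearson's r of the level with GC content was -0.65 and with the observed to expected CpG ratio -0.25. Over the 33 alternate and beta exons these were -0.54 and -0.42. Within clusters r with the CpG ratio was between -0.23 and -0.20, and r with GC content was -0.11 over the 19 alternate gamma exons, -0.19 over 8 beta exons and 0.34 over 6 alternate alpha exons. Spearman's rho in the same order was -0.0018, -0.26 and 0.029 with the CpG ratio, and 0.074, 0 and 0.26 with GC content. The negative relation within clusters was thus not seen by rank in alternate gamma and alpha exons. For the number of covered sites, r with the level was -0.56 over 38 exons, -0.30 over the 33 without the C-type exons, and within clusters -0.18 in alternate gamma, -0.48 in beta and 0.17 in alternate alpha exons. Spearman's rho with the number of sites was -0.24 in alternate gamma, -0.69 in beta and -0.44 in alternate alpha exons, so the sign in alpha depended on the measure.

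Other genes of the family and of its control were compared by the same measure, the level of the first exon. The nonclustered protocadherins, single genes that encode related adhesion molecules, were measured at 11 of 11 and had a median of 2.20%. Pcdh11x (88.3%), Pcdh12 (76.5% over only 3 sites) and Pcdh19 (31.1%) were above the other 8, which lay under 4%. Pcdh11x and Pcdh19 are X-linked, and female cells carry an inactive X chromosome, but whether this bears on their levels was not tested. Of the 11, 5 were higher and 6 lower in ENR, all with overlapping groups and none called.

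Among 18 genes that control protocadherin choice or DNA methylation, 15 were measured, with a median of 1.14%, and none was called by limma. Groups did not overlap at 3 of them, 2 higher and 1 lower in ENR, against 3.7% and 5.35% of all first exons. Stag2, an X-linked cohesin subunit, had 19.8%, 23.3% and 20.03% in STD and 32.2%, 25.7% and 27.0% in ENR. Dnmt3b, the methyltransferase that methylates alternate protocadherin promoters in the embryo, had 0.78% ± 0.09 in STD and 1.56% ± 0.69 in ENR (SD, n = 3 each). Rest, a repressor of neuronal genes, had 1.71% ± 0.38 in STD and 0.45% ± 0.27 in ENR (SD, n = 3 each, limma adjusted p = 0.961). The DNA-binding factor Ctcf had 1.08% and the chromatin protein Smchd1, which silences clustered protocadherins, 1.14%, both with overlapping groups. Of 5 signalling partners of protocadherins, 3 were measured (Fyn, Ret and Nlgn1), and their groups overlapped.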

How the data were processed

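Per the labels, the authors trimmed reads with Trim Galore 0.4.0 and cutadapt 1.8.1, aligned them to mm10 with Bismark 0.16.1 and kept cytosines with at least 10 reads in methylKit 1.5.2 (versions from the submitters' processing notes; the study's methods give other versions of Trim Galore and Bismark). The deposited table gives the percent of methylated reads per cytosine and library, with no missing value. 0 columns of library values were left unused.

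All 903 positions were a CpG of the GRCm38 (mm10) sequence and belonged to 769 CpGs, 134 of them with both strands, which were kept as separate sites. Exons were taken from GENCODE M21 and gene symbols from RefSeq. Where the windows stop, 2 beta genes further along (Pcdhb21 and Pcdhb22) were left out. The variable exon was the first exon of a gene, for beta genes the single exon with its untranslated parts. Its level was the unweighted mean over at least 3 sites. Constant exons were exons shared by at least 3 genes.

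The authors' own test used reads per cytosine. Because the values are percentages, limma 3.58.1 (R 4.3.3; lmFit, eBayes with trend) was fitted on all varying sites or first exons, with Benjamini-Hochberg adjustment over all of them, and was tested on simulated data, where it recovered most changed first exons but no changed single sites with 3 mice per group. A lack of calls at single sites therefore does not show a lack of difference. Recovery was not tested for the variable exons on their own. Their median within-group SD was 4.93 points, against 0.91 points in other first exons. The lack of calls among the 38 variable exons therefore does not show a lack of difference either. For single values, groups were compared by exact permutation (two-sided, 20 regroupings, smallest p = 0.1), and contrasts within libraries with exact sign-flip tests (Python 3.11.15, scipy 1.17.1).

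Same-numbered STD and ENR libraries deviated together over 10700 first exons (r = 0.19, 0.13 and 0.33). Differently numbered libraries had r between -0.22 and 0.087. Of these, STD replicate 1 with ENR replicate 2 (0.087) and STD replicate 2 with ENR replicate 1 (0.076) were near the 0.13. The r of 0.33 joined the STD and ENR libraries with the lowest means over the whole table (22.5% and 21.3%). The replicate number was treated as a pairing in an alternative fit only, since the evidence for pairs was weak and the labels name no shared litter or batch.

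The members, gene lists and tests were chosen with earlier results of these data known. Named were all C-type genes, the highest and lowest exon per cluster, exons without overlap, and the 2 largest differences in each direction per cluster. Other exons are given where a sentence orders or locates them. No DNA sequence is printed. Alternatives covered the scale, the variance trend, quantile normalization, thresholds, the minimum number of sites, medians, pooled or intermediate sites, the replicate block and each library left out. Those marked as added were chosen after seeing the data.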

Additional observations from a re-analysis of the deposited data

How the results depend on the processing

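No call was made in any alternative, sites or exons. Unadjusted p under 0.05 was found at between 12 (quantile normalization) and 42 sites (no variance trend). The paired fit with the replicate block changed no call: it called 0 sites and 0 exons, and the cluster differences, which pairing cannot move (0.48, -1.01 and 0.69 points), had exact sign-flip p of 1, 0.25 and 0.5 (3 pairs cannot go below 0.25).

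The sign of the small housing differences changed in some alternatives. With quantile normalization the sign was kept, but the sizes moved to 1.13 points in alpha, -0.038 in beta, 1.74 in gamma (exact p = 0.2 or more for each), -3.51 at the alpha constant exon site and 1.53 in the gamma constant exons. With the median over sites, alpha was -0.44, gamma -0.61 and the gamma constant exons -0.20 points, and over intermediate sites alpha was -0.24 points. With each library left out in turn, alpha ran from -0.68 (without ENR replicate 1) to 1.99 points, beta from -2.99 to 1.01 (without ENR replicate 3), gamma from -0.34 to 2.30, the alpha constant exon site from -16.0 to 16.8 (without ENR replicate 3) and the gamma constant exons from -0.11 to 2.14. Leaving out STD replicate 2 also turned alpha (-0.042), STD replicate 1 beta (0.17) and the gamma constant exons (-0.11), STD replicate 3 or ENR replicate 1 gamma (-0.34 each), and STD replicate 2 or 3 the alpha constant exon site (4.30 and 3.57). Leaving out a library also breaks a pair, and all 3 beta pairs were lower in ENR. The cause was not tested. No value could be had for gamma constant exons over intermediate sites, since none of their sites is intermediate.

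Contrasts within libraries kept their direction when a library was left out, but the exact sign-flip test of 5 libraries cannot go below p = 0.0625. Ranges were -45.9 to -44.6 points for C-type minus alternate exons in alpha, -38.4 to -37.2 in gamma, -33.1 to -31.5 for alpha minus beta, -31.4 to -30.8 for gamma minus beta, and 42.0 to 43.0 for variable minus other first exons (36.2 to 37.0 at matched distance). Gamma minus alpha was -0.73 with medians over sites, -4.98 with alternate exons only (an added alternative) 3.65 with at least 1 site per exon and 10.2 with pooled sites, and ran from 0.70 (without STD replicate 2) to 2.24 (without STD replicate 3). Read numbers per site are unknown, which limits what can be said of single cytosines.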
